A study of Mus musculus with 9 samples.

Results

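The 5 genes described here are *Kif1a*, *Kif1b*, *Kif21a*, *Dync1h1* and *Trak2*, which encode motors and an adaptor of transport along microtubules. They were chosen by symbol, as 5 of the 689 genes in a deposited table of RNA-seq expression values, and all 5 were found. The table gives RPKM, the reads of a gene divided by transcript length and by library size, in hemibrains of 9 male C57BL/6J mice. Young controls (n = 3) were 5 months old by the labels, came from JAX and ate control diet for 6 weeks. Aged controls (n = 3) were 24 months old, came from NIA and ate the same diet for 6 weeks. Aged-repopulated mice (n = 3), also 24 months old and from NIA, ate PLX5622 for 2 weeks and then control diet for 4 weeks. PLX5622 blocks CSF1R, a receptor that microglia need to survive, so the drug depletes these cells and its withdrawal lets new ones fill the brain. Supplier and age cannot be told apart. The table holds only genes that the authors' own model had called on these same libraries, and the study's text names several of the 5 genes, so the tests below are not independent evidence of a difference.

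Kinesins and dynein are motors that burn ATP to walk along microtubules. Most kinesins walk towards the plus ends and carry cargo from the cell body out along the axon, whereas cytoplasmic dynein walks towards the minus ends and brings cargo back. Adaptor proteins join the motors to vesicles and mitochondria. Neurons depend on this traffic because synapses lie far from the cell body where most proteins are made, and inherited faults in several of these motors cause disease of nerve cells.

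All 5 genes have long transcripts. In the GENCODE M21 annotation of GRCm38, the assembly also called mm10, *Kif1a* lies at chr1:93015464-93101951 on the minus strand, with 48 exons and 8206 nucleotides in its longest coding transcript. *Kif1b* lies at chr4:149176319-149307693 on the minus strand, with 49 exons and 10233 nucleotides. *Kif21a* lies at chr15:90933276-91049948 on the minus strand, with 37 exons and 6439 nucleotides. *Dync1h1* lies at chr12:110601452-110666945 on the plus strand, with 77 exons and 14342 nucleotides, and only 5 of the 686 genes with a known length are longer. *Trak2* lies at chr1:58900449-58973430 on the minus strand, with 16 exons and 6189 nucleotides, and is the shortest of the 5. None of the 5 transcripts shares a stretch of 50 bases with a transcript of another gene. Exons of the antisense gene Gm35558 overlap 403 nucleotides of *Dync1h1* exons, those of Gm17111, also antisense, overlap a shorter stretch, and the sources used here do not state whether counting used the strand.

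The promoters of 3 of these genes are shown because *Kif1a* and *Dync1h1* were the genes called in both aged contrasts below and *Trak2* differed most with age. Each runs 5′ to 3′ from 250 bases before to 50 bases after the RefSeq gene start on GRCm38.p6, and capitals mark GC boxes (GGGCGG on either strand), the letters bound by Sp1-type factors.
Kif1a, chr1:93101825-93102124, minus strand: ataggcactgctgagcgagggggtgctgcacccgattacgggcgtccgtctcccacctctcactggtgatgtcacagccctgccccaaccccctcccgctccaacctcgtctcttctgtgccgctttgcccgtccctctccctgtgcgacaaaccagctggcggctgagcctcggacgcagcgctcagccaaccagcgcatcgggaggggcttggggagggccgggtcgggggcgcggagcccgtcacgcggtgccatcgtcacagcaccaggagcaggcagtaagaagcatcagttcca
Dync1h1, chr12:110601145-110601444, plus strand: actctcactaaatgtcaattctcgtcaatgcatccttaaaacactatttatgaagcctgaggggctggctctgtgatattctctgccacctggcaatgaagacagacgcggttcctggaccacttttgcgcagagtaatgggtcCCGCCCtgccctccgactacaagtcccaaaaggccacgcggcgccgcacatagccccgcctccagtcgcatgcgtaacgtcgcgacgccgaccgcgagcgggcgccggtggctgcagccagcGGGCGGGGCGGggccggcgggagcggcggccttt
Trak2, chr1:58973433-58973732, minus strand: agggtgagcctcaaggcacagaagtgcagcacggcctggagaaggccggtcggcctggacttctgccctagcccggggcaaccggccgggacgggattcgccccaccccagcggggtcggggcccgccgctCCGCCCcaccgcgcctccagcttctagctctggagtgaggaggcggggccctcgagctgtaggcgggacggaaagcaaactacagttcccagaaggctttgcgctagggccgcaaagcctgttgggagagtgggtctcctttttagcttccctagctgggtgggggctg
The first listed windows are rich in GC and CpG, as are those of the other 2 genes. The GC content of the first listed window of each gene was 67.0% in *Kif1a*, 69.7% in *Kif1b*, 71.0% in *Kif21a*, 62.3% in *Dync1h1* and 67.7% in *Trak2*, against a median of 52.7% over 32851 mouse promoters of the same length. They held from 21 CpG pairs in *Trak2* to 40 in *Kif1b*, where the median promoter held 7. A GC box was present in 4 of the 5 windows, with 4 matches in *Kif1b*, 3 in *Dync1h1*, of which 2 overlap, 1 in *Kif21a*, 1 in *Trak2* and 0 in *Kif1a*, and in 35.7% of all promoters. The CCAAT letters, read on both strands, occurred only in *Kif1b* among the 5, with 2 matches, and in 37.4% of all promoters. The cAMP response element TGACGTCA (1.79% of all promoters), the NRF1 motif (4.6%), the E box CACGTG (7.15%), the ETS letters CCGGAAG (8.86%) and TATAAA (13.6%) were in none of these 5 windows. RefSeq lists a second start for *Kif1a*, whose window at chr1:93082431-93082730 held 1 E box, 1 CpG and 51.7% GC, close to the median promoter in GC, and a second one for *Kif1b*, which overlaps the first. These counts describe letters in a window and not the binding of a factor.

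The order of the levels was the same in all 9 libraries. RPKM is per length, so levels of different genes can be set side by side, but only roughly. Differences between groups still moved with transcript length, as given below. *Kif1a* was highest, between 127.6 and 146.0 RPKM, and ranked 19 of 689 genes by its mean. *Kif1b* lay between 67.9 and 77.3 RPKM, *Dync1h1* between 45.5 and 50.5, *Kif21a* between 40.5 and 44.9, and *Trak2* between 30.7 and 36.3. No range over the 9 libraries overlapped that of its neighbour in this order. The closest neighbours were *Dync1h1* and *Kif21a*.

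*Kif1a* encodes a kinesin-3 motor that carries precursors of synaptic vesicles and dense-core vesicles down the axon. Its RPKM was 140.3, 137.1 and 136.7 in the young controls, 130.1, 133.2 and 127.6 in the aged controls, and 141.7, 146.0 and 141.8 in the aged-repopulated mice. The aged controls lay below both other groups without overlap, and the aged-repopulated mice lay above the young controls. The means were 138.0 ± 1.96, 130.3 ± 2.81 and 143.2 ± 2.44 RPKM (SD, n = 3 each). *Kif1a* fell by 5.59% with age, a difference of -0.08 on the log2(RPKM + 1) scale (SE 0.03, adjusted p = 0.0423 by limma with Benjamini-Hochberg adjustment over 689 genes). It was 9.89% higher in aged-repopulated than in aged control brains (log2 difference 0.14, SE 0.03, 95% interval 0.07 to 0.20, limma adjusted p = 0.0409).

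*Kif1b* encodes another kinesin-3 motor, with splice forms that carry synaptic vesicle precursors or mitochondria. The deposited values are per gene, so these forms were not separated. *Kif1b* was at 74.9, 70.9 and 72.3 RPKM in the young controls, at 72.4, 67.9 and 70.9 in the aged controls, and at 77.0, 75.7 and 77.3 in the aged-repopulated mice. Young and aged controls overlapped, and all 3 aged-repopulated values exceeded every control value. The means were 72.7 ± 2.05, 70.4 ± 2.27 and 76.7 ± 0.859 RPKM (SD, n = 3 each). The log2 difference with age was -0.05 (SE 0.04, limma adjusted p = 0.261), and with repopulation it was 0.12 (SE 0.04, 95% interval 0.04 to 0.20, limma adjusted p = 0.0575), which misses the threshold of 0.05.

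*Kif21a* encodes a kinesin-4 motor that also limits the growth of microtubule ends, and mutations in its human counterpart cause a congenital fibrosis of the eye muscles. Its values were 43.4, 41.6 and 43.4 RPKM in the young controls, 40.5, 41.3 and 41.0 in the aged controls, and 42.1, 44.9 and 44.4 in the aged-repopulated mice. The aged controls were lowest, by only 0.252 RPKM against the nearest young control and 0.731 RPKM against the nearest aged-repopulated mouse. The means were 42.8 ± 1.05, 40.9 ± 0.422 and 43.8 ± 1.49 RPKM (SD, n = 3 each). Neither the log2 difference with age (-0.06, SE 0.03, limma adjusted p = 0.135) nor that with repopulation (0.09, SE 0.03, limma adjusted p = 0.0930) passed the threshold.

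*Dync1h1* encodes the heavy chain of cytoplasmic dynein, the subunit that holds the motor domain for transport back to the cell body. It was at 49.6, 49.4 and 48.8 RPKM in the young controls, at 45.5, 46.2 and 45.9 in the aged controls, and at 50.4, 50.5 and 50.4 in the aged-repopulated mice. The 3 groups did not overlap, and the spread within them was the smallest of the 5 genes. The means were 49.3 ± 0.445, 45.9 ± 0.395 and 50.4 ± 0.0700 RPKM (SD, n = 3 each). *Dync1h1* fell by 6.94% with age (log2 difference -0.10, SE 0.03, limma adjusted p = 0.0139). It was 9.91% higher in aged-repopulated than in aged control brains (log2 difference 0.13, SE 0.03, 95% interval 0.07 to 0.19, limma adjusted p = 0.0340).

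*Trak2* encodes an adaptor that links mitochondria, through the Miro proteins of their outer membrane, to kinesin-1 and to dynein. The young controls had 34.6, 35.2 and 36.3 RPKM, the aged controls 33.0, 30.7 and 32.3, and the aged-repopulated mice 35.7, 33.6 and 34.7. Every aged control was below every other mouse, and young and aged-repopulated values overlapped. The means were 35.3 ± 0.871, 32.0 ± 1.18 and 34.7 ± 1.05 RPKM (SD, n = 3 each). *Trak2* fell by 9.44% with age, the largest fall of the 5 in percent (log2 difference -0.14, SE 0.04, limma adjusted p = 0.0154). With repopulation the log2 difference was 0.11 (SE 0.04, limma adjusted p = 0.0813), which does not pass.

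**Figure D1:**
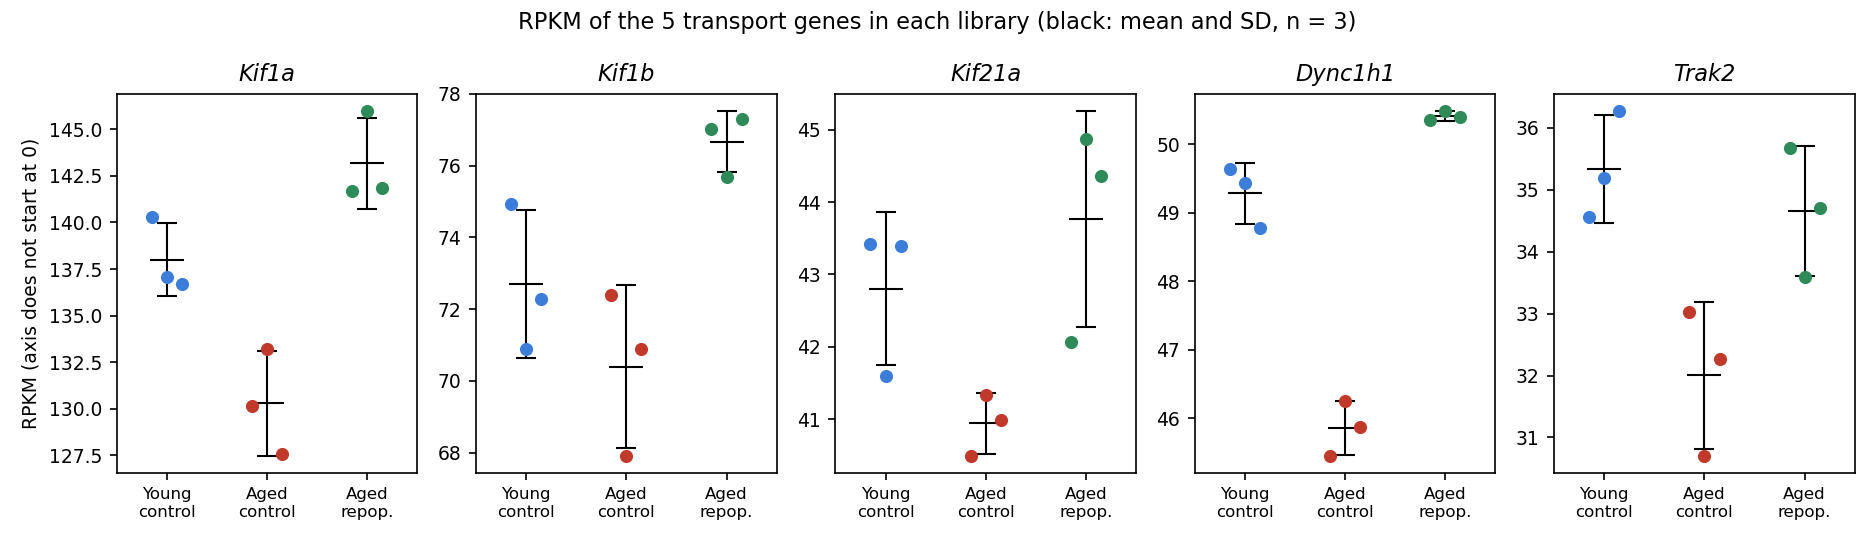
RPKM of each gene (vertical axes, which do not start at 0) in the 3 libraries of each group (points), with the mean and SD in black. The aged control points are the lowest in each panel except that of *Kif1b*, where young and aged controls overlap; *Kif1a* reads 127.6 to 133.2 RPKM in aged controls and 141.7 to 146.0 in aged-repopulated mice.

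Set against the whole table, 3 of the 5 genes were called lower with age, where 16.5% of the 689 genes were, and 2 of 5 were called higher with repopulation, where 2.9% were. Of the 111 other genes with transcripts at least as long as that of *Trak2*, 58 were called with age and 14 with repopulation, in either direction (limma). The 2 genes called higher were also among the 3 called lower with age. All 5 were higher with repopulation at an unadjusted limma p under 0.05, as were 14.2% of the table, and 39.3% of the table passed that threshold in either direction. Young and aged controls did not overlap for 4 of the 5 genes, a share near the 70.1% of the table. Aged and aged-repopulated mice did not overlap for 5 of 5, against 37.4% of the table. The median log2 difference of the 5 was -0.08 with age, where the table's median was 0.10, and 0.12 with repopulation, where the table's median was -0.05. The age and repopulation contrasts share the aged control libraries and are not independent of each other.

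Added together, the 5 genes gave 342.8, 334.2 and 337.4 RPKM in the young controls, 321.5, 319.4 and 317.6 in the aged controls, and 346.8, 350.6 and 348.6 in the aged-repopulated mice. They made up 1.5% to 1.54% of the table's summed RPKM in young controls, 1.28% to 1.36% in aged controls and 1.47% to 1.53% in aged-repopulated mice. The table's sum itself was 22242 to 22330 RPKM in young controls, 23629 to 24853 in aged controls and 22861 to 23632 in aged-repopulated mice. These shares therefore also depend on the other genes, which were selected on these libraries. Because a hemibrain mixes cell types, fewer cells of a type and less RNA per cell cannot be told apart.

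Aged-repopulated brains were not called different from young control brains for any of the 5 genes by limma (0 of 5, against 4.93% of the table, and 0 of 5 at an unadjusted p under 0.05, against 28.4%). The log2 difference was 0.05 for *Kif1a* (95% interval -0.02 to 0.12), 0.08 for *Kif1b* (-0.0032 to 0.16), 0.03 for *Kif21a* (-0.05 to 0.11), 0.03 for *Dync1h1* (-0.03 to 0.09) and -0.03 for *Trak2* (-0.11 to 0.06). These intervals do not show equal levels, since for *Kif1b* they reach a difference larger than that with repopulation. The groups did not overlap for 3 genes, *Kif1a*, *Kif1b* and *Dync1h1*, all with higher values in the aged-repopulated mice, against 42.7% of the table. When each library was centred on its median, the sign turned for *Kif1a* (-0.00076), *Kif21a* (-0.022) and *Dync1h1* (-0.021), so no direction is given for this contrast.

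**Figure D2:**
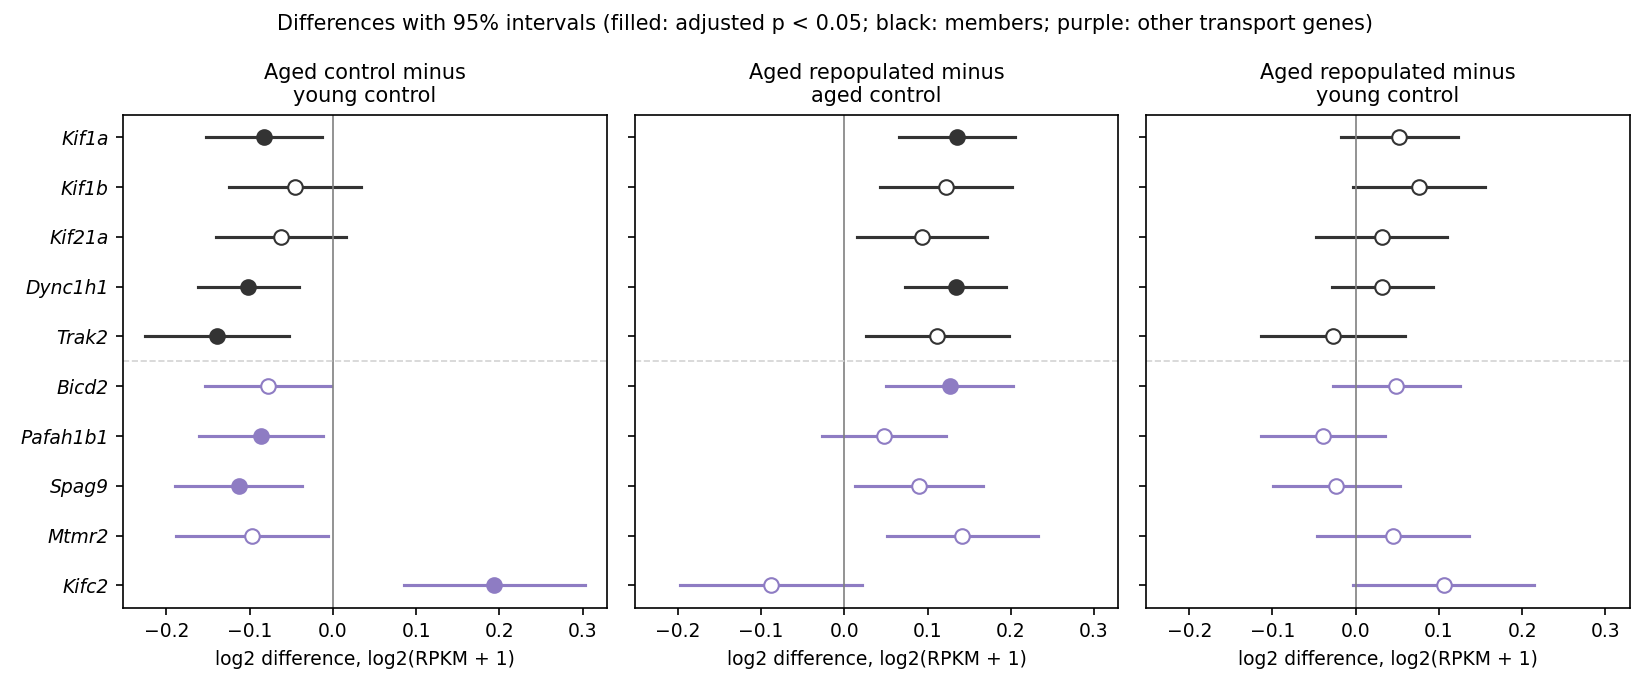
Log2 differences (horizontal axes, log2(RPKM + 1) scale) with 95% intervals for the 5 genes in black and for 5 other transport genes in purple, in the 3 contrasts, with filled points at an adjusted p under 0.05 (limma). The 5 genes lie left of 0 with age and right of 0 with repopulation, and *Kifc2* lies on the other side in both.

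The median over the table's genes, which were selected on these libraries, also moved between groups. It was 0.11 higher on the log2 scale in aged than in young controls, and 0.05 lower in aged-repopulated than in aged control mice. Relative to those shifts, the 5 genes differed by -0.15 in *Kif1b* to -0.25 in *Trak2* with age and by 0.15 in *Kif21a* to 0.19 in *Kif1a* with repopulation, and all 5 were called in both contrasts. Centring also turned the split of the whole table, from 319 genes called higher and 114 lower with age to 78 and 215, and from 20 higher and 40 lower with repopulation to 111 and 22.

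Transcript length moved with the result. The 111 other genes of the table with transcripts at least as long as that of *Trak2* had a median log2 difference of -0.10 with age, and 91 of them were lower in aged controls. With repopulation their median was 0.10, and 99 of the 111 were higher. The 570 shorter genes had medians of 0.12 with age and -0.07 with repopulation. With repopulation the quartiles of the 111 long genes were 0.06 and 0.13 and their range was -0.14 to 0.25. *Kif1b*, *Kif21a* and *Trak2* lay between the quartiles, and *Kif1a* and *Dync1h1* lay just above the upper one. When each library was corrected for log2 transcript length by loess, no gene of the 5 was called in either contrast (0 of 5). Over the table this fit called 158 of 686 genes with age and 16 of 686 with repopulation. The 0 of 5 with repopulation is therefore near the table's share. *Kif1a* then stood at 0.0035 with age and 0.05 with repopulation, *Dync1h1* at 0.015 and 0.0046. *Trak2* kept the most, -0.09 with age (limma adjusted p = 0.0801) and 0.06 with repopulation. With a length correction that keeps each library's mean, *Trak2* stood at -0.0070 with age and 0.024 with repopulation. The other 4 genes were then above 0 with age, and *Kif1b* was called higher (0.15, limma adjusted p = 0.0088). With repopulation 2 of the 5 were above 0 in this fit, *Trak2* and *Kif1a* (0.011). Why the differences moved with transcript length was not tested.

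**Figure D3:**
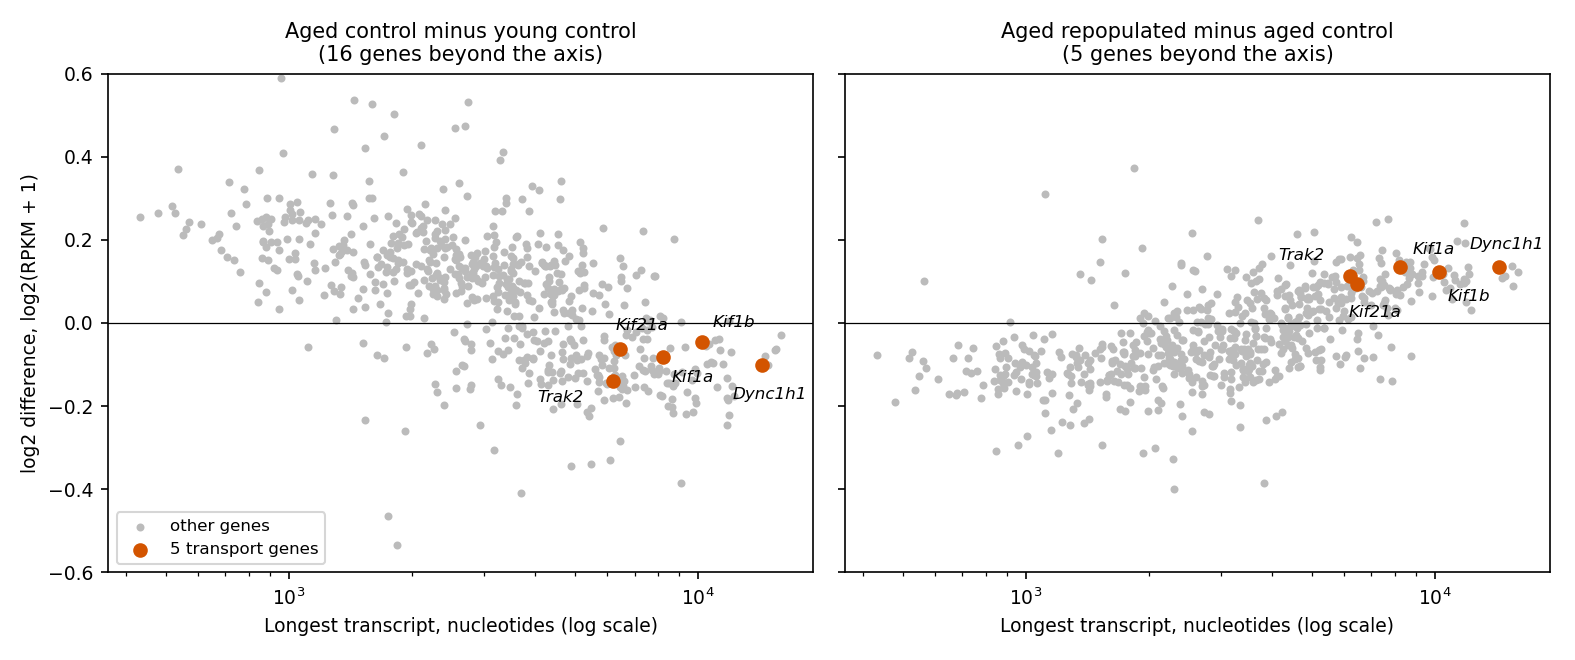
Log2 difference of each of 686 genes against the length of its longest transcript (log scale), with age on the left and with repopulation on the right, and the 5 transport genes in orange. Long genes tend to lie below 0 with age and above 0 with repopulation, and the 5 genes lie among them; 16 and 5 genes fall beyond the vertical axis.

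Other parts of the transport machinery were mostly not in the table, which held 10 of 120 genes on 6 lists of motors, subunits and adaptors. Of 40 kinesin motors it held 4, of 16 dynein subunits 1, of 17 dynein regulators and activating adaptors 2 and of 27 kinesin adaptors and cargo linkers 3. None of 8 kinesin light chains and associated subunits and none of 12 dynactin subunits was listed. Genes outside the table are not analysed here. Of the 5 listed genes beyond those chosen, 2 were called lower and 1 higher with age (16.5% and 46.3% of the table), and 1 was called higher with repopulation (2.9% of the table) by limma.

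*Bicd2*, which joins dynein and dynactin to their cargo, had 15.5, 15.5 and 15.7 RPKM in young controls, 14.99, 14.7 and 14.3 in aged controls, and 15.5, 16.4 and 16.5 in aged-repopulated mice. It was called higher with repopulation (log2 difference 0.13, SE 0.03, limma adjusted p = 0.0492) and was not called with age (-0.08, limma adjusted p = 0.0665). *Pafah1b1*, which encodes the dynein regulator Lis1, had 109.3, 105.3 and 110.7 RPKM in young controls, 101.3, 102.2 and 102.5 in aged controls, and 102.4, 108.0 and 106.2 in aged-repopulated mice. It was called lower with age (-0.09, limma adjusted p = 0.0448), and its aged groups overlapped (0.05, limma adjusted p = 0.273). *Spag9*, which encodes the scaffold JIP4 that binds kinesin-1 and dynactin, was called lower with age (-0.11, limma adjusted p = 0.0198) and stood at 0.09 with repopulation (limma adjusted p = 0.0932). *Mtmr2*, a phosphoinositide phosphatase counted here with the kinesin adaptors and cargo linkers, was called in neither contrast (-0.10 and 0.14, limma adjusted p = 0.0590 and 0.0570). *Kifc2*, a kinesin of the minus-end directed family, had 108.3, 108.5 and 108.9 RPKM in young controls, 115.3, 128.4 and 129.9 in aged controls, and 111.7, 119.5 and 119.8 in aged-repopulated mice. It was the one listed transport gene called higher with age (0.19, SE 0.05, limma adjusted p = 0.0118), with -0.09 and overlapping groups with repopulation (limma adjusted p = 0.187). Its transcript, at 3218 nucleotides, is shorter than that of any of the 5 genes. So are those of *Mtmr2* (3788 nucleotides) and *Pafah1b1* (5803), whose differences had the signs of the 5 genes in both contrasts. Of the tracks and other motors, 0 of 14 tubulins and 2 of 15 myosins were listed; *Myh10*, a nonmuscle myosin, was called lower with age (-0.12, limma adjusted p = 0.0115) and stood at 0.08 with repopulation (limma adjusted p = 0.0932), and *Myh9*, another, stood at 0.05 with age and 0.18 with repopulation (limma adjusted p = 0.442 and 0.0743).

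Across the 9 libraries the 5 genes varied together to different degrees. Pearson's r of log2 values was highest between *Kif1a* and *Dync1h1*, at 0.94, and lowest between *Kif21a* and *Trak2*, at 0.44. The libraries are shared by all pairs and fall into 3 groups, so these r describe the table and carry no test. Ratios of 2 genes within a library do not depend on its scale. Of the 10 ratios among the 5 genes, a comparison chosen after seeing the data, 2 did not overlap between young and aged controls, 1 between aged and aged-repopulated mice and 0 between aged-repopulated and young mice. Over all pairs of genes of the table the shares were 55.8%, 33.6% and 39.1%, and over pairs of the 116 genes with transcripts at least as long as that of *Trak2* they were 40.9%, 19.2% and 31.7%. The ratio of *Kif21a* to *Dync1h1* was 0.841 to 0.890 in young controls, 0.891 to 0.894 in aged controls and 0.836 to 0.889 in aged-repopulated mice. The ratio of *Kif1b* to *Trak2* was 1.99 to 2.17 in young controls and 2.19 to 2.21 in aged controls. The groups overlapped in the other 8 ratios with age and the other 9 with repopulation.

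The genes whose pattern was most like that of the 5 were ranked by Pearson's r over the 9 libraries with the mean z-score of the 5, among the other 684 genes. They were *Ddhd1* (r = 0.97), *Kpnb1* (0.94), *Golgb1* (0.94), *Ank3* (0.93), *Map1b* (0.92), *Bicd2* (0.91), *Map1a* (0.91), *Peg3* (0.91), *Prepl* (0.90) and *Iqsec1* (0.90). The median length of these 10 was 9257 nucleotides, but *Kpnb1* (5894) and *Prepl* (3255) were shorter than any of the 5 genes. *Map1a* and *Map1b* encode proteins that bind microtubules, and *Ank3* encodes ankyrin-G of the axon initial segment.

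Markers of cell types were partly in the table, and no listed marker was at 0. Of 22 neuron markers 3 were listed, and their summed RPKM was 282 to 298 in young controls, 293 to 314 in aged controls and 290 to 294 in aged-repopulated mice. *Rbfox3*, the gene of the neuronal nuclear protein NeuN, was called higher with age (log2 difference 0.16, limma adjusted p = 0.0124) and lower with repopulation (-0.17, limma adjusted p = 0.0452). *Gad1*, which marks inhibitory neurons, was also called higher with age (0.17, limma adjusted p = 0.0208) and stood at -0.10 with repopulation (limma adjusted p = 0.186). *Map2*, a microtubule protein of dendrites, went the other way, as the 5 transport genes did: it was called lower with age (-0.12, limma adjusted p = 0.0202) and stood at 0.08 with repopulation (limma adjusted p = 0.148). Its transcript (6258 nucleotides) is longer than those of *Rbfox3* (3150) and *Gad1* (3355). With libraries centred on their medians, *Rbfox3*, *Gad1* and *Map2* stood at 0.05, 0.06 and -0.23 with age and at -0.11, -0.04 and 0.13 with repopulation. Of 19 microglia markers 8 were listed, summing to 155 to 161 RPKM in young controls, 229 to 272 in aged controls and 219 to 318 in aged-repopulated mice, where the highest value is that of library P01. Without P01, *Kif1a* and *Dync1h1* stood at 0.14 and 0.13 with repopulation, with neither called. Of 16 oligodendrocyte markers only *Opalin* was listed, with 15.5 to 19.0 RPKM in young controls, 10.9 to 13.2 in aged controls and 12.1 to 19.2 in aged-repopulated mice. *Opalin* had the signs of the 5 genes, called lower with age (-0.53, limma adjusted p = 0.0133) and at 0.37 with repopulation (limma adjusted p = 0.0932). Of 11 astrocyte markers *Gjb6* and *Glul* were listed, and both were called higher with age (0.23 and 0.16, limma adjusted p = 0.0096 and 0.0133) and not with repopulation (-0.10 and -0.0013, limma adjusted p = 0.151 and 0.982). Their sum was 422 to 440 RPKM in young controls, 473 to 509 in aged controls and 467 to 504 in aged-repopulated mice. Of 12 endothelial markers 3 were listed, and their sum was 55.9 to 56.1 RPKM in young controls, 46.6 to 53.7 in aged controls and 41.9 to 51.5 in aged-repopulated mice. Its members differed in sign: with age *Itm2a* was called lower (-0.46, limma adjusted p = 0.0096) and *Ly6c1* higher (0.37, limma adjusted p = 0.0122), while *Slco1a4* stood at -0.03 (limma adjusted p = 0.676). With repopulation *Slco1a4* was called lower (-0.38, limma adjusted p = 0.0118), and *Itm2a* and *Ly6c1* stood at 0.12 and -0.31 (limma adjusted p = 0.376 and 0.0609). The part of cell composition in the levels of the 5 genes was not tested.

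The calls with repopulation rest on few libraries, although the sizes moved little. The log2 difference of *Kif1a* stayed between 0.12 and 0.15, and that of *Dync1h1* between 0.13 and 0.14, when any library was left out. Yet both calls were lost without any of 8 libraries, with adjusted p up to 0.0889 and 0.0793 (limma), and without aged control library P10 the calls numbered 3 with *Kif1b* added. The calls over the whole table moved in the same way, from 60 of 689 genes to between 2 and 25 in those 8 fits and to 141 without P10. With age, *Dync1h1* was called in 9 of 9 such fits, *Trak2* in 8 of 9 (not without young control library P09, limma adjusted p = 0.0554) and *Kif1a* in 2 of 9.

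**Figure D4:**
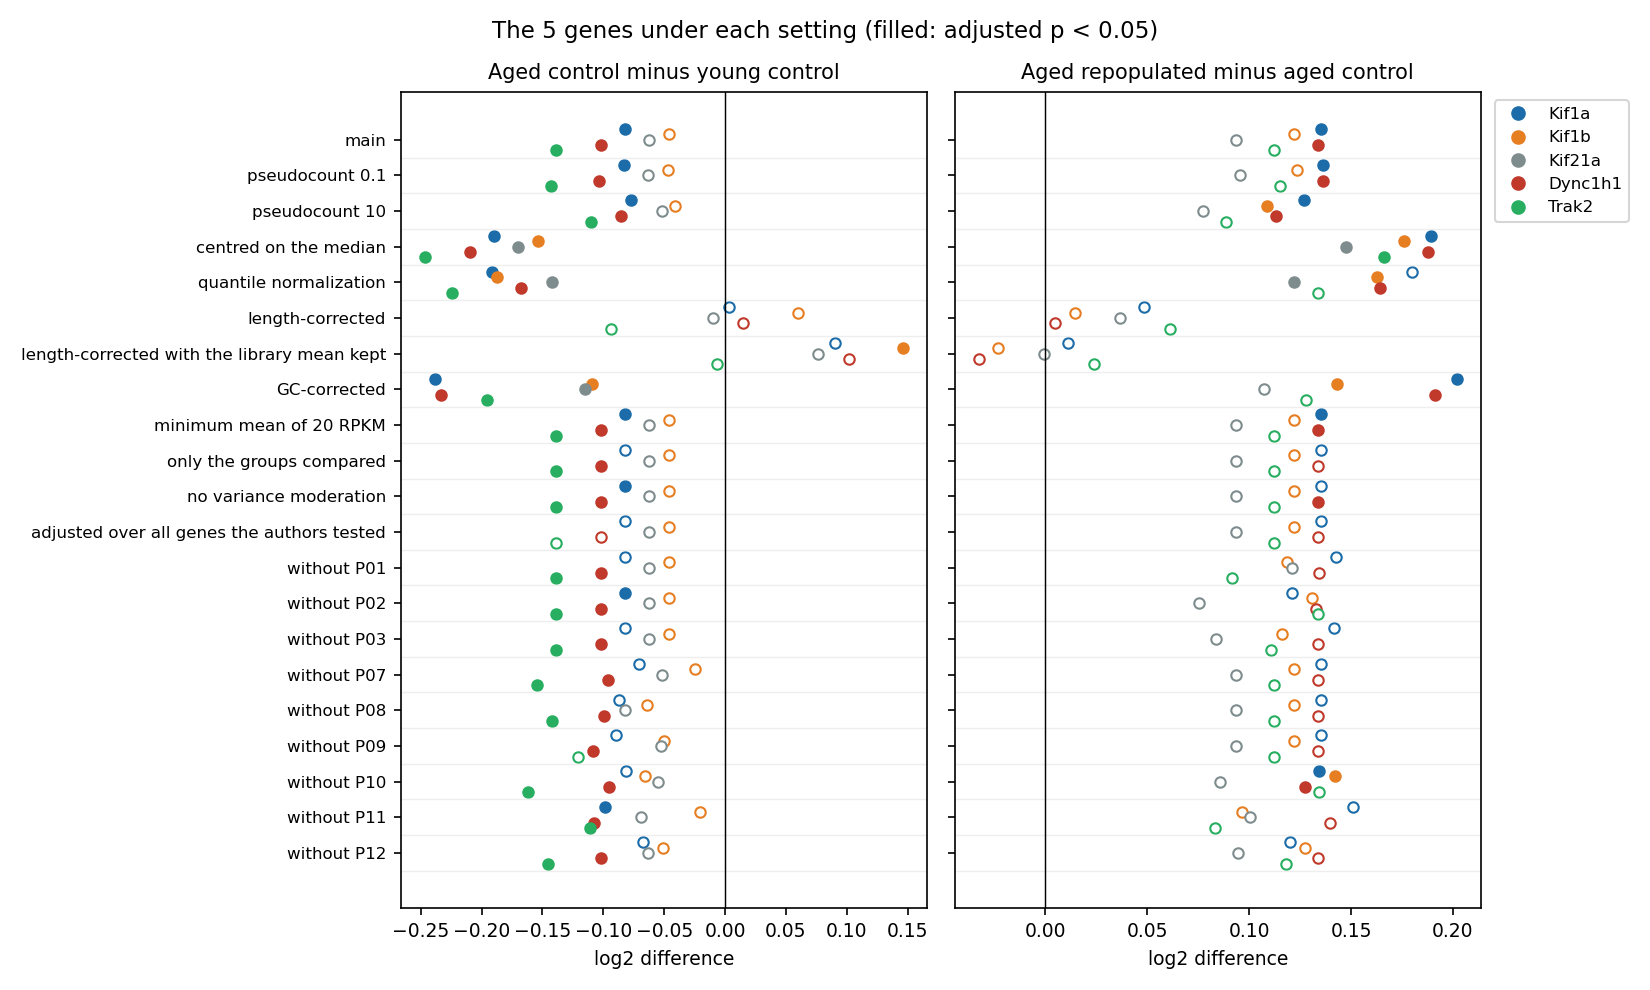
Log2 differences of the 5 genes (horizontal axes) under each setting except untransformed RPKM (vertical axis). Age is on the left and repopulation on the right, and points are filled where the adjusted p is under 0.05 (limma). Points move away from 0 with centring on the median and towards or across 0 with correction for transcript length, where *Kif1a* reads 0.05 with repopulation.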

How the data were processed

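RNA was sequenced from 1 frozen hemibrain per mouse. The authors called bases with CASAVA 1.8.2, mapped the reads with ELAND to the mm10 build, calculated RPKM and kept genes above an RPKM minimum. How reads were counted, and on which strand, is not given in the sources used here. They fitted a generalized linear model to RPKM and deposited the RPKM of the 689 genes it called. The deposited table also holds the authors' F and t scores and their p-values, which were not used. All library columns were matched to a sample (0 unmatched).

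Read depth is unknown: whole-read steps were sought in the RPKM of 486 genes, with a best mean cosine per library of 0.129 to 0.161, where perfect steps give 1. Precision therefore rests on the spread between mice. No pair of libraries shared a value.

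Here log2(RPKM + 1) was fitted with limma 3.58.1 in R 4.3.3, all 9 libraries in 1 fit, with Benjamini-Hochberg adjustment over 689 genes at 0.05. Fold differences on this scale are slightly understated. The code was tested on simulated data. Transcript lengths came from GENCODE M21 (686 of 689 symbols matched, 19 through an older symbol), and all 5 genes had RefSeq promoters. Plots used Python 3.11.15 and matplotlib 3.10.9.

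The members, gene lists and tests were chosen with earlier results of these data known. Named genes are the 5 members, other listed transport genes in the table, and the 10 with the most similar pattern; the markers and myosins were named after their values were seen. Alternatives were a pseudocount of 0.1 or 10, untransformed RPKM, median centring, quantile normalization, loess correction (span 0.75) for transcript length or GC content, a minimum mean of 20 RPKM, unmoderated variances, a fit without the third group, adjustment over all genes the authors tested, and each library left out. A length correction that keeps each library's mean was added after seeing the data. For the adjustment over all genes the authors tested, only the number of tests was raised, since genes outside the table have no values here.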

Additional observations from a re-analysis of the deposited data

How the results depend on the processing

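The number of the 5 genes called with age was 3, beside 433 of 689 genes of the table. It was 5 with centring (293 over all genes), quantile normalization (277) or GC correction (290 of 686), 0 with length correction (158), 1 with length correction that kept the library mean (*Kif1b*, higher; 245), 0 with adjustment over all genes the authors tested (7), 2 with only the groups compared (411), where *Kif1a* lost its call (limma adjusted p = 0.0703), and from 1 to 3 with a library left out (1 without P09, with 269 over all genes). The number called with repopulation was 2, beside 60 of the table. It was 5 with centring (133 over all genes), 3 with quantile normalization (73), GC correction (69) or a pseudocount of 10 (54), 0 with length correction (16), 0 with the library mean kept (15), 0 with only the groups compared (5), 1 without variance moderation (5), 0 with adjustment over all genes the authors tested (1), and from 0 to 3 with a library left out. With quantile normalization *Kif1a* lost its call (limma adjusted p = 0.0536). Between aged-repopulated and young mice 0 of the 5 were called, and 1 (*Kif1b*, 0.12) with length correction that kept the mean, beside 34 and 86 over all genes. The number at an unadjusted p under 0.05 in this contrast was 0, and 3 with untransformed RPKM or without variance moderation.

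Length correction turned the sign with age for *Kif1a* (0.0035), *Kif1b* (0.060) and *Dync1h1* (0.015). With the library mean kept the age differences were 0.090 for *Kif1a*, 0.15 for *Kif1b*, 0.077 for *Kif21a*, 0.10 for *Dync1h1* and -0.0070 for *Trak2*, and those with repopulation were -0.023 for *Kif1b*, -0.00067 for *Kif21a* and -0.033 for *Dync1h1*. The contrast of aged-repopulated with young mice turned with centring for *Kif1a* (-0.00076), *Kif21a* (-0.022) and *Dync1h1* (-0.021), with quantile normalization for *Kif1a* (-0.011), *Kif1b* (-0.025), *Kif21a* (-0.020) and *Dync1h1* (-0.0035), with GC correction for *Kif1a* (-0.036), *Kif21a* (-0.0077) and *Dync1h1* (-0.042), and with the mean-kept length correction for *Trak2* (0.017). The cause was not tested. No paired analysis was possible because the labels give each mouse a number of its own and tie no mouse of one group to a mouse of another. Each group held 3 mice, and read depth is unknown. The calls of *Kif1a* with age and with repopulation and of *Dync1h1* with repopulation sat close to the threshold (limma adjusted p = 0.0423, 0.0409 and 0.0340). Those of *Dync1h1* and *Trak2* with age lay further below it (limma adjusted p = 0.0139 and 0.0154).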
